A study of Mus musculus with 16 samples.

Results

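Antioxidant and Nrf2 target genes were followed through 22 probe sets, short sets of oligonucleotides that each report a transcript, out of 45101 on the array. The list held 10 genes, Hmox1, Nqo1, Gclm, Gclc, Txnrd1, Sod1, Sod2, Prdx1, Gpx4 and Cat, and a probe set was taken when the platform annotation named one of them and no other gene. Of these genes, 9 had at least 1 such probe set, among 18193 genes with one on the array. The 5 probe sets annotated to Prdx1 also carry the symbol of the pseudogene Gm21399, so Prdx1, a peroxiredoxin, has no value here. In the amplified group (n = 8), total RNA of the mouse embryonic stem cell line E14tg2a was diluted to 10 pg, about what 1 cell holds, and each array received cDNA from its own PCR amplification by a method named V1V3. In the nonamplified group (n = 8), 5 µg of the same RNA was labelled without this PCR amplification. All 16 arrays are technical replicates of a single RNA preparation from 1 line, so the groups share cell makeup and RNA content per cell, and a p-value measures only the spread between technical replicates.

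Cells keep superoxide, hydrogen peroxide and lipid peroxides low with a relay of enzymes. Superoxide dismutases turn superoxide into hydrogen peroxide, and catalase, peroxiredoxins and glutathione peroxidases remove peroxides, drawing on thioredoxin and glutathione. The transcription factor Nrf2 (gene Nfe2l2) is held back by Keap1, which delivers it for degradation, and under oxidative or electrophilic stress it escapes, pairs with small Maf proteins and binds antioxidant response elements near genes such as Hmox1, Nqo1, Gclm, Gclc and Txnrd1. Loss of Gpx4 lets lipid peroxides build up and is lethal to the mouse embryo. Sod2 and Cat are also known targets of FoxO factors.

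The core of the antioxidant response element reads TGACNNNGC. The windows below show where it was found in RefSeq promoters (GRCm38.p6, 250 bases before to 50 after the start site) of genes measured here. The windows are written on the gene's strand, 5′ to 3′. Capitals mark the match, which reads as GCNNNGTCA because the motif lies on the opposite strand.
Gclm: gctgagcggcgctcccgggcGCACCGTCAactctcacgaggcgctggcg
Txnrd1: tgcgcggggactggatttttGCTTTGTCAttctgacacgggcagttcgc
Sod1: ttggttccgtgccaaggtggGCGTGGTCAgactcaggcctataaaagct
They lie at chr3:122245403-122245451, chr10:82859094-82859142 and chr16:90220686-90220734, all on the plus strand. Promoters were on hand for 8 of the 10 genes, and 4 of their 13 promoters held a match on either strand, against 12.4% of all 32851 promoters. The remaining match was that of Prdx1. No match was found in the promoters of Nqo1, Cat, Gpx4 and Sod2, or in the other promoters of Txnrd1. Hmox1 and Gclc had no entry. Since both groups carry the same RNA, the promoter is the same for every value that follows, and a match is a description of letters and not of binding.

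On the deposited intensity scale the arrays of each group were alike in level. Median intensity ran between 33.9 and 36.7 on amplified arrays and between 49.7 and 53.8 on nonamplified arrays. Embryonic stem cell markers were bright, the 8 of them summing to 37806 to 40479 on amplified arrays and 28290 to 29523 on nonamplified arrays. Single markers went both ways: Utf1 averaged 8761 on amplified and 1814 on nonamplified arrays, and Nanog 276 and 1776. The 8 fibroblast markers summed to 215 to 355 and 273 to 349, the 4 primitive endoderm markers to 269 to 341 and 161 to 216, and 3 of 4 blood markers to 60.2 to 164 and 116 to 184, in the same order. Gata6 carried the primitive endoderm sum, with 229 on amplified and 73.2 on nonamplified arrays. In the nonamplified group 0 of 8 stem cell markers, 5 of 8 fibroblast, 2 of 4 primitive endoderm and 2 of 3 blood markers lay under the array-wide median.

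Of the 22 probe sets, 21 passed the filter on low values (mean over all arrays above the 40th percentile) and were compared between the groups with limma on log2(intensity + 16), with Benjamini-Hochberg adjustment over 27022 probe sets. Relative to nonamplified arrays, 7 probe sets were higher and 7 lower on amplified arrays, and 7 missed the threshold of an adjusted p of 0.05. Over all tested probe sets, 24.7% were called higher and 32.8% lower (57.5% in either direction), so the counts of the list were near the background. The median log2 fold change was 0.10 over the 21 probe sets and −0.17 over all tested ones. The higher calls belonged to Sod1, Sod2, Gpx4 and Cat, and the lower calls to Hmox1, Gclc, Txnrd1 and to other probe sets of Sod1 and Sod2. Values of the groups did not overlap for 7 probe sets with the amplified group higher and 6 with it lower (14.8% and 18.8% of all tested).

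**Figure D1:**
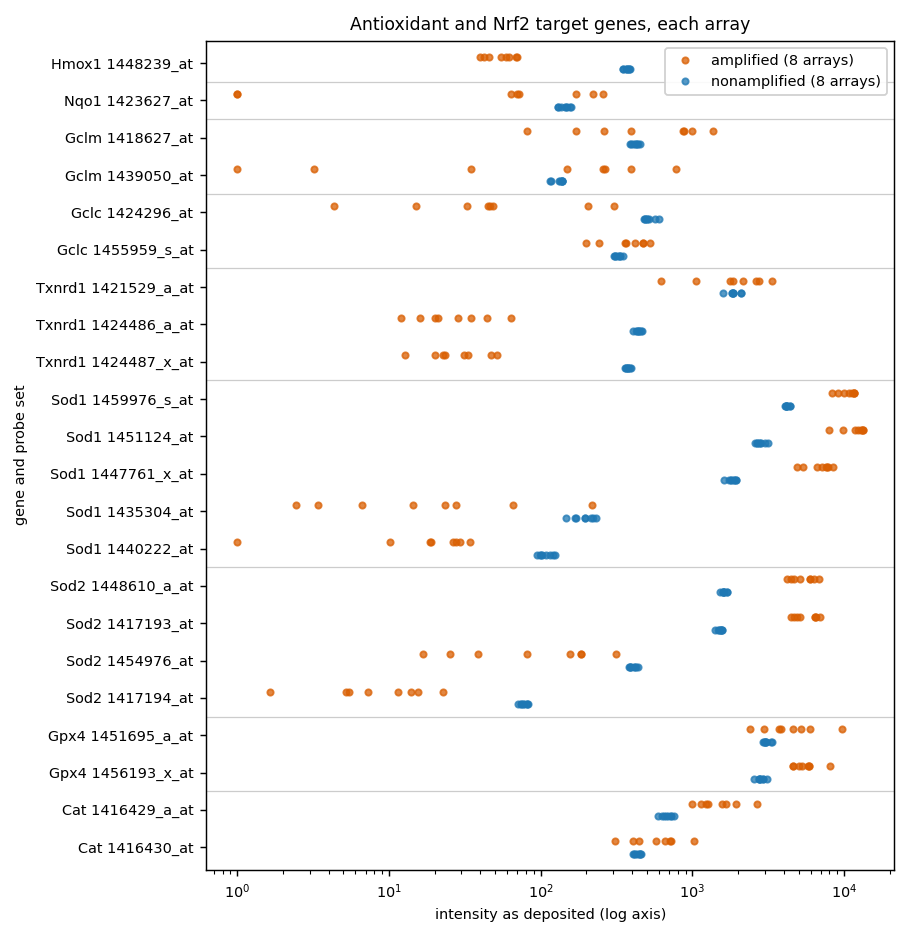
Deposited intensity (log axis) of each of the 22 probe sets on every array, with 8 amplified arrays (orange) above 8 nonamplified arrays (blue) in each row. The nonamplified points of a probe set sit close together, whereas the amplified points of Nqo1, Gclm and Gclc 1424296_at are strewn across 1 to 1364. Amplified points of Sod1 1435304_at (2.45 to 218) and Sod2 1454976_at (16.6 to 315) are widely spread as well.

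Sod1, the copper-zinc superoxide dismutase of the cytosol, gave opposite results at different probe sets. At 1451124_at the lowest, median and highest intensities were 7911, 12567 and 13326 on amplified arrays, against 2598, 2756 and 3136 on nonamplified arrays. All 8 amplified arrays lay above all nonamplified ones, and amplified replicates 4 and 5 were the lowest of them. In limma the log2 fold change was 2.05 ± 0.11 (SE; adjusted p = 8.02e-11). Sod1 probe sets 1447761_x_at and 1459976_s_at rose as well, with log2 fold changes of 1.90 and 1.31, and amplified replicates 4 and 5 were again the lowest. The suffixes _x and _s mark probe sets whose probes may match other transcripts. Sod1 1435304_at, a dimmer probe set, had a lowest, median and highest intensity of 2.45, 18.9 and 218 on amplified arrays and 148, 196 and 231 on nonamplified arrays. It fell on 7 of 8 amplified arrays to below the whole nonamplified range, while amplified replicate 6 lay within it (−2.34 ± 0.42 SE as log2 fold change in limma, adjusted p = 0.000149). The dimmest, Sod1 1440222_at, averaged 20.8 ± 11.0 on amplified arrays and 108 ± 11.0 on nonamplified arrays (SD, n = 8 each), a limma log2 fold change of −1.82 (adjusted p = 2.60e-07). Its amplified mean lies under the filter's intensity of 33.7, so it passed the filter through its nonamplified values. Over the settings it was tested in, its difference ranged between −2.66 and −1.03.

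Sod2, the manganese enzyme of the mitochondrial matrix, repeated this split. Its bright probe set 1417193_at measured 4447, 5766 and 6918 (lowest, median, highest) on amplified arrays, against 1404, 1529 and 1571 on nonamplified arrays. The groups stood apart without overlap, with a limma log2 fold change of 1.88 ± 0.10 (SE; adjusted p = 1.10e-10), and 1448610_a_at gave 1.72. At Sod2 1454976_at the order turned, with 16.6, 119 and 315 on amplified arrays against 381, 405 and 436 on nonamplified arrays. Every amplified array lay below every nonamplified one (−1.99 ± 0.41 SE as log2 fold change in limma, adjusted p = 0.000560). Amplified replicates 1, 3 and 6 were the lowest there and amplified replicate 4 the highest. The last Sod2 probe set, 1417194_at, is the 1 of 22 that did not pass the filter. It averaged 10.4 ± 6.86 on amplified arrays and 77.2 ± 4.25 on nonamplified arrays (SD, n = 8 each), and without the filter it was called lower.

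Among the peroxide-removing enzymes, Cat and Gpx4 were higher in the amplified group at 1 of 2 probe sets each. Cat encodes catalase, the peroxisomal enzyme that splits hydrogen peroxide. Cat 1416429_a_at measured 990, 1417 and 2656 (lowest, median, highest) on amplified arrays and 593, 682 and 756 on nonamplified arrays. All amplified arrays were above the nonamplified range, with replicate 2 the highest (1.11 ± 0.17 SE as log2 fold change in limma, adjusted p = 2.37e-05). At Cat 1416430_at the groups overlapped, with means of 604 ± 225 on amplified arrays and 433 ± 20.1 on nonamplified arrays (SD, n = 8 each), and the log2 difference of 0.38 (95% interval −0.017 to 0.78) did not pass (limma adjusted p = 0.0946).

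Gpx4, the selenoenzyme that reduces lipid peroxides within membranes, measured 4616, 5523 and 8037 (lowest, median, highest) at 1456193_x_at on amplified arrays and 2532, 2775 and 3117 on nonamplified arrays. The groups did not overlap, amplified replicate 8 stood highest, and limma gave a log2 fold change of 0.98 ± 0.11 (SE; adjusted p = 5.92e-07). Under quantile normalization this difference was 0.10 and did not pass (limma adjusted p = 0.403). At Gpx4 1451695_a_at amplified arrays spanned 2395 to 9615, around the nonamplified range of 2909 to 3345. Amplified replicate 8 was again the highest and amplified replicate 4 the lowest, and the log2 difference of 0.51 did not pass (95% interval 0.054 to 0.97, limma adjusted p = 0.0530). It was called higher with arrays centred on their median, scaled on their brighter 50%, weighted per group or fitted with a robust trend, and without amplified replicate 4 (log2 fold change 0.64) or amplified replicate 7 (0.59). Quantile normalization turned its sign (−0.33) without passing.

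Txnrd1, the cytosolic thioredoxin reductase and another selenoenzyme, fell at 2 of 3 probe sets. At 1424486_a_at the lowest, median and highest intensities were 12.0, 24.7 and 63.3 on amplified arrays, against 407, 441 and 468 on nonamplified arrays. The amplified arrays all lay far below the nonamplified range, a limma log2 fold change of −3.39 ± 0.18 (SE; adjusted p = 5.77e-11), the largest decrease among the 21. Txnrd1 1424487_x_at gave −3.13 (SE 0.15). The brightest probe set, 1421529_a_at, ran through 621, 2003 and 3356 on amplified arrays and 1581, 1844 and 2089 on nonamplified arrays. Here 4 amplified arrays were above the nonamplified range and 2, replicates 2 and 6, below it. The log2 difference was −0.044 (95% interval −0.62 to 0.53, limma adjusted p = 0.905), and under quantile normalization it was called lower (−0.81, limma adjusted p = 0.0110).

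Gclc and Gclm are the catalytic and the modifier subunit of glutamate-cysteine ligase, which carries out the rate-limiting step of glutathione synthesis. Gclc 1424296_at had a lowest, median and highest intensity of 4.31, 45.6 and 305 on amplified arrays and 481, 503 and 598 on nonamplified arrays. All 8 amplified arrays were below the nonamplified range, replicates 1 and 7 least so, and limma gave a log2 fold change of −2.94 ± 0.45 (SE; adjusted p = 2.81e-05). Gclc 1455959_s_at averaged 381 ± 114 on amplified arrays and 323 ± 16.1 on nonamplified arrays (SD, n = 8 each), a log2 difference of 0.17 that did not pass (limma adjusted p = 0.408). It was called higher with arrays centred on their median (0.58), while quantile normalization (−0.010) and scaling on hybridization controls (−0.25) turned its sign without passing.

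Neither Gclm probe set passed the test, and both varied widely after amplification. Gclm 1418627_at measured 261, 81.7, 391, 883, 868, 1364, 994 and 170 on amplified replicates 1 to 8, against a nonamplified range of 389 to 451. Amplified arrays fell on both sides of that range, 4 above and 3 below. Gclm 1439050_at measured 148, 781, 3.18, 256, 1, 34.9, 392 and 265.5 on the same arrays, against a nonamplified range of 115 to 138. The probe sets went opposite ways on several arrays: replicate 2 was the lowest at the first and the highest at the second, and replicates 5 and 6 were above the nonamplified range at the first and below it at the second. The log2 differences were 0.10 (95% interval −0.86 to 1.07, limma adjusted p = 0.863) and −0.21 (95% interval −1.68 to 1.26, limma adjusted p = 0.818), intervals that hold more than a 2-fold change in at least 1 direction. Their signs turn with the scaling.

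Hmox1, which breaks down heme to biliverdin, iron and carbon monoxide, was low on every amplified array. Its only probe set, 1448239_at, measured 39.9, 56.7 and 70.1 (lowest, median, highest) on amplified arrays and 347, 370 and 386 on nonamplified arrays. The amplified arrays also lay close to one another, with an SD of 0.24 on the log2 scale, the lowest among the 7 probe sets called lower. The limma log2 fold change of −2.45 ± 0.10 (SE; adjusted p = 2.44e-12) stayed called, between −2.87 and −1.86, in all 28 settings run.

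Nqo1, a quinone reductase and a standard marker of Nrf2 activity, behaved in another way. Its probe set 1423627_at measured 1, 70.1, 72.3, 171, 1, 256, 221 and 63.5 on amplified replicates 1 to 8, against 130 to 159 over the nonamplified arrays. Replicates 1 and 5 stood at 1, the floor of the deposited table, 3 other replicates were also below the nonamplified range and 3 were above it. The log2 difference of −0.96 (95% interval −2.07 to 0.15) did not pass (limma adjusted p = 0.132). It was called lower when arrays were scaled on the hybridization controls (−1.37, limma adjusted p = 0.0393) or weighted per group (limma adjusted p = 0.0464).

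**Figure D2:**
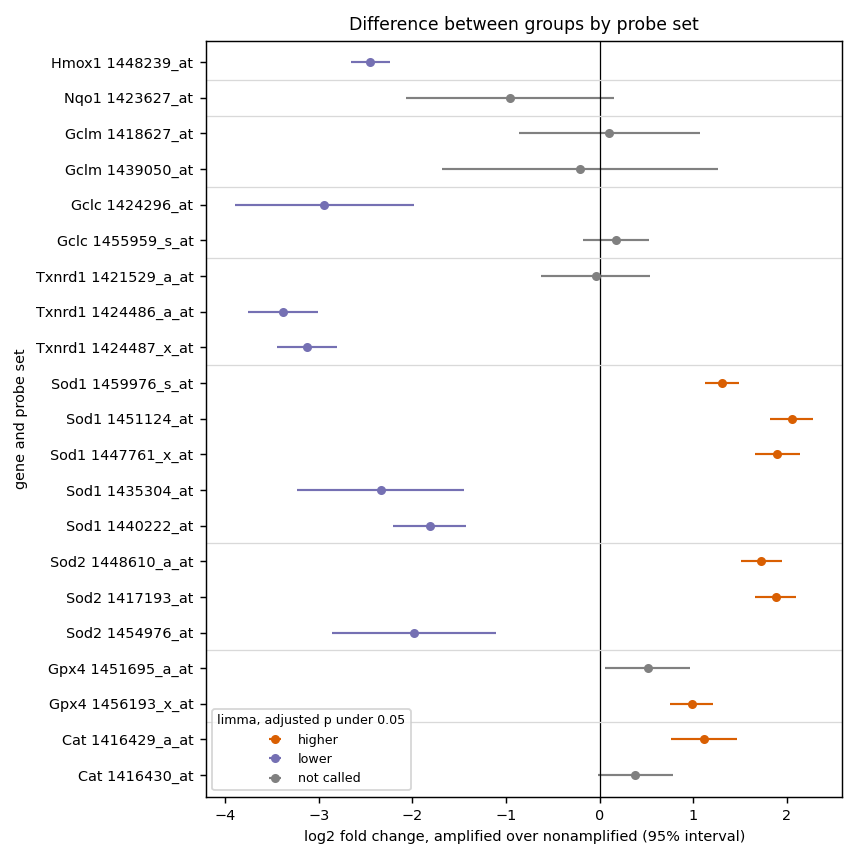
Log2 fold change (amplified over nonamplified) of the 21 tested probe sets with 95% intervals, coloured by the limma call (orange higher, purple lower, grey not called). Sod1 and Sod2 each hold probe sets on both sides of 0, from −2.34 to 2.05 and from −1.99 to 1.88, and the intervals of Nqo1 and Gclm are the widest together with Gclc 1424296_at.

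The 14 calls were recomputed under other scalings and settings. They kept their direction and call under each scaling, filter, pseudocount and weighting run and with each array left out, except Gpx4 1456193_x_at under quantile normalization, and Sod1 1440222_at, which is not tested at the 60th percentile filter. The scalings moved the median log2 difference of all tested probe sets between −0.59 (hybridization controls) and 0.24 (arrays centred on their median), with −0.17 for the values as deposited. Of the 7 probe sets not called, all but Nqo1 changed sign in at least 1 setting. The size of the called differences also moved. Over all settings Sod1 1451124_at ranged between 1.30 and 2.46, Sod1 1447761_x_at between 1.09 and 2.31 and Sod1 1459976_s_at between 0.62 and 1.71. Sod2 1417193_at ranged between 1.05 and 2.29, Sod2 1448610_a_at between 0.88 and 2.13, and Cat 1416429_a_at between 0.47 and 1.52. The probe sets that fell to low intensities depend on the pseudocount: Sod1 1435304_at was −3.33 with a pseudocount of 1 and −1.41 with 64, Txnrd1 1424486_a_at −4.01 and −2.44, and Gclc 1424296_at −3.50 and −2.19.

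Probe sets of the same gene were then compared within each array, where a scaling factor common to the array largely cancels. For 20 pairs of tested probe sets in 7 genes, the log2 ratio of the pair was set against the other group in an exact 2-sided permutation test, adjusted over the 20 pairs. The ratio differed for 17 pairs, and by at least 2-fold for 11. The ratio of Sod1 1451124_at to 1435304_at averaged 8.15 ± 1.2 on amplified arrays and 3.76 ± 0.25 on nonamplified arrays on the log2 scale (SD, n = 8 each; exact permutation p = 0.000155, the lowest this design allows, adjusted p = 0.000222). Because 1435304_at is dim on amplified arrays, the size of this difference depends on the pseudocount, with 5.38 at a pseudocount of 1 and 3.45 at 64, both called. For Sod2 1417193_at over 1454976_at the log2 ratio averaged 5.73 ± 1.36 and 1.86 ± 0.075 (amplified, nonamplified; exact permutation adjusted p = 0.000222). Txnrd1 1421529_a_at over 1424486_a_at gave 5.39 ± 0.74 and 2.04 ± 0.15, and Gclc 1424296_at over 1455959_s_at gave −2.46 ± 1.06 and 0.65 ± 0.16, in the same order and with the same exact permutation p.

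For other pairs the ratio differed little between the groups, or its difference did not pass. Sod2 1448610_a_at and 1417193_at both rose, and their log2 ratio differed by −0.16 between the groups, a small difference that passed (exact permutation adjusted p = 0.000414). For the pairs of dim or falling Sod1 probe sets (1435304_at, 1440222_at), of falling Txnrd1 probe sets (1424486_a_at, 1424487_x_at) and of Gclm, the ratio did not pass (exact permutation adjusted p = 0.348, 0.332 and 0.761). The log2 ratio of Gclm 1418627_at to 1439050_at averaged 1.88 ± 2.95 on amplified arrays and 1.56 ± 0.10 on nonamplified arrays (SD, n = 8 each), so arrays of the amplified group disagreed on which way it moved. Without amplified replicate 6 the Sod1 pair passed (log2 difference −0.94), and without amplified replicate 4 the Txnrd1 pair did (−0.43). On the same arrays the control probe sets at the 5′ end of Gapdh relative to its 3′ end gave intensity ratios of 0.220 to 0.521 on amplified arrays and 1.18 to 1.21 on nonamplified arrays. For Actb the ratios were 0.566 to 1.03 and 0.805 to 0.840, in the same order. The position of the antioxidant probe sets along their transcripts was not used here, and the part of such end effects in these ratios was not tested.

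**Figure D3:**
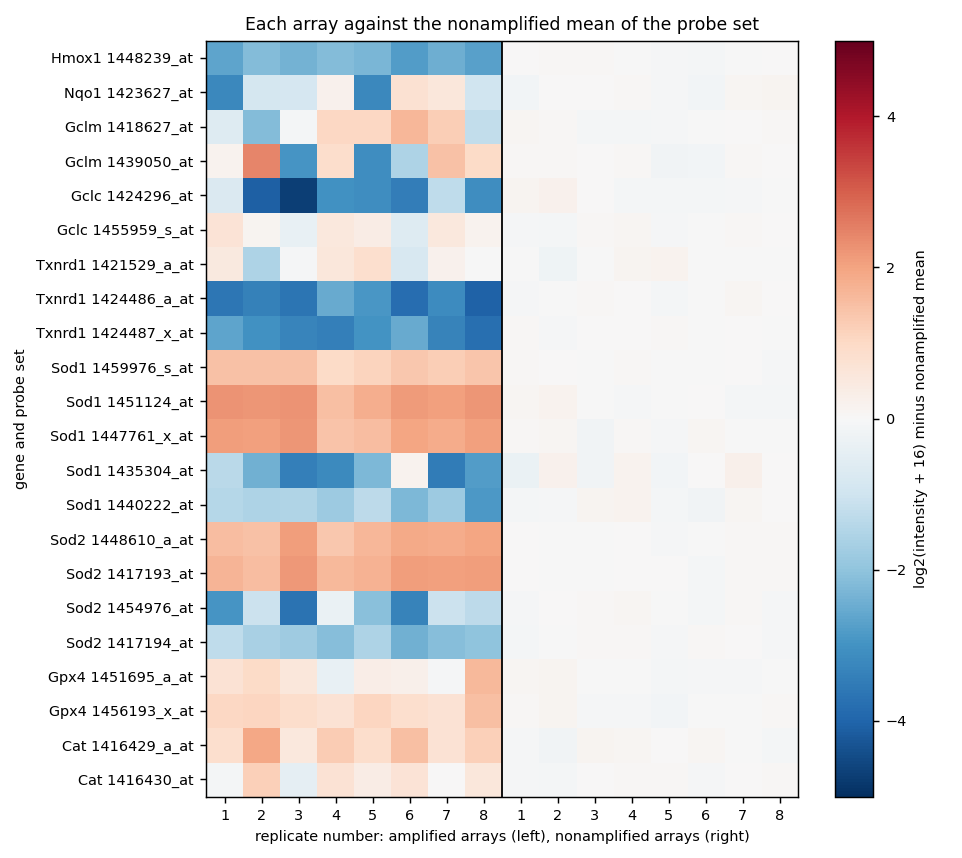
Difference of each array from the nonamplified mean of the probe set, as log2(intensity + 16), with amplified arrays on the left and nonamplified arrays on the right. The bright Sod1 and Sod2 probe sets are high and Hmox1 and 2 Txnrd1 probe sets low on all 8 amplified arrays, while Nqo1 and both Gclm probe sets change sign from array to array.

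All 21 tested probe sets had a larger SD among amplified than among nonamplified arrays. On a single amplified array, 8 to 13 of them lay above the nonamplified range and 7 to 11 below it. The median SD on the log2 scale was 0.50 in the amplified group and 0.073 in the nonamplified group, beside 0.51 and 0.13 over all tested probe sets. In a limma fit of absolute deviations from the group mean, adjusted over all 27022 probe sets, the spread was larger in the amplified group for 18 of 21 and smaller for 0 (52.8% and 0.418% of all tested). With deviations from the group median 13 passed. Sod1 1447761_x_at passed narrowly (limma adjusted p = 0.0498). It did not pass centred on the median, after quantile normalization, without the filter or with a pseudocount of 1. Sod1 1459976_s_at did not pass without the filter, nor Sod1 1435304_at with a pseudocount of 64. Conversely, Sod1 1440222_at passed centred on the median and with a pseudocount of 1. The widest was Gclm 1439050_at, with SDs of 2.07 on amplified and 0.096 on nonamplified arrays (limma adjusted p = 0.000676). Nqo1 had 1.56 and 0.098 (limma adjusted p = 0.0124), and Gclm 1418627_at had 1.36 and 0.073 (limma adjusted p = 0.000791). On this log2 scale the smallest SDs in the amplified group belonged to Sod1 1459976_s_at and Hmox1. Sod1 1459976_s_at had 0.19 on amplified and 0.038 on nonamplified arrays, and Hmox1 had 0.24 and 0.056. The place of Hmox1 depends on the pseudocount, which narrows the log2 spread of dim probe sets. As a share of mean intensity, its amplified SD was 21.3%. The called-higher probe sets of Sod1, Sod2 and Gpx4 had 12.2% to 19.6%, and the other tested probe sets lay above Hmox1. The spread difference of Sod1 1451124_at, Sod1 1440222_at and Gpx4 1456193_x_at did not pass (limma adjusted p = 0.0994, 0.0617 and 0.111).

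**Figure D4:**
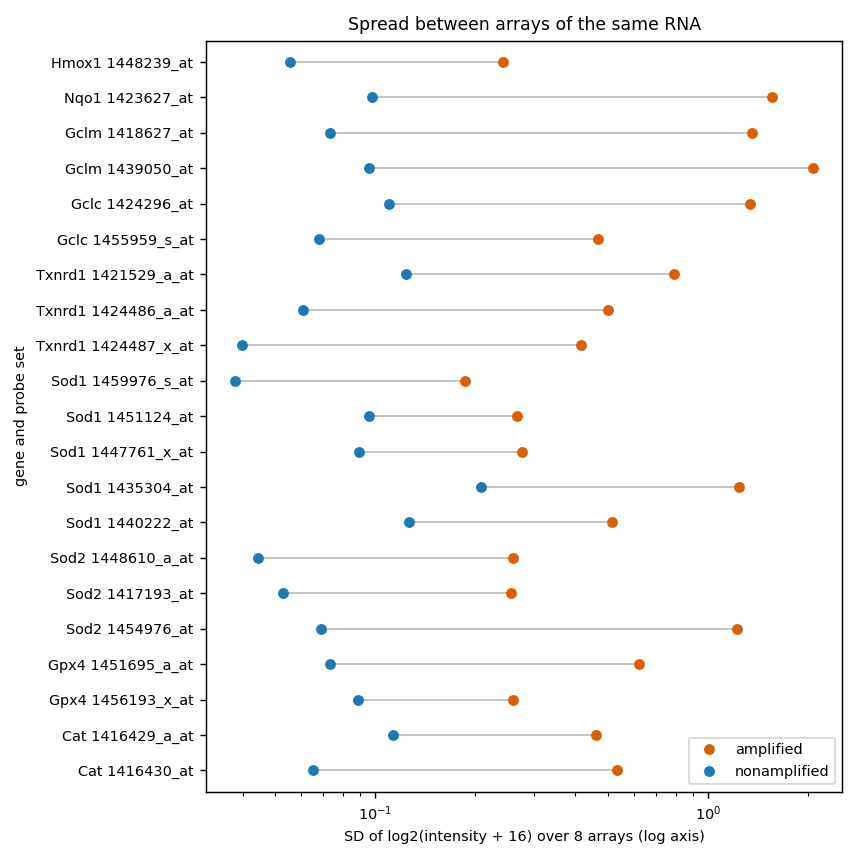
SD of log2(intensity + 16) over the 8 arrays of each group for the 21 tested probe sets (log axis), amplified in orange and nonamplified in blue. Every amplified SD exceeds its nonamplified one, from 0.19 for Sod1 1459976_s_at to 2.07 for Gclm 1439050_at in the amplified group.

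Near-complete loss of signal was counted as well. A dropout was counted where a probe set whose nonamplified mean ranked in the upper 50% lay under the 25th percentile of an array (13.1 to 14.4 on amplified arrays). All 22 probe sets ranked in that upper 50%, and they had 17 dropouts among 176 pairs of probe set and amplified array (9.66%, beside 14.5% for all probe sets in the upper 50%) and 0 on nonamplified arrays. Of the 22, 8 dropped out at least once (37.8% of all those in the upper 50%) and 0 on all 8 arrays (0.848%). Sod2 1417194_at, which was not tested, had the most with 5, on replicates 3, 4, 6, 7 and 8. Sod1 1435304_at had 3, on replicates 3, 4 and 7. Nqo1, Gclm 1439050_at and Sod1 1440222_at had 2 each, and Gclc 1424296_at, Txnrd1 1424486_a_at and Txnrd1 1424487_x_at had 1 each.

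Beyond the list, 63 other genes of the pathway were examined each by its brightest probe set on nonamplified arrays. Of these, 59 had a probe set of their own and 56 were tested. Among them 12 were higher and 18 lower in the amplified group, and 26 did not pass (limma, adjusted over all probe sets). Over all 13660 genes the shares were 23.8% higher and 29.9% lower. The median log2 fold change was −0.34, and −0.15 over all genes. With arrays centred on their median the counts were 19 higher and 10 lower.

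Of 9 tested regulators, 1 was higher and 3 were lower. Nfe2l2, which encodes Nrf2 itself, averaged 1155 ± 319 on amplified arrays and 529 ± 27.6 on nonamplified arrays (SD, n = 8 each), with a limma log2 fold change of 1.05 (adjusted p = 1.86e-05). Sqstm1, an autophagy receptor that can sequester Keap1, averaged 219 ± 123 and 687 ± 31.0 in the same order (log2 fold change −1.82). Cul3, the ubiquitin ligase scaffold that Keap1 works with, had −0.21 at its brightest probe set and did not pass (limma adjusted p = 0.446), with −2.65 to 0.75 at its others.

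Glutathione and thioredoxin enzymes went both ways. Of 14 tested glutathione genes, 3 were higher and 4 lower. Gsr, glutathione reductase, averaged 92.1 ± 157 on amplified arrays and 611 ± 31.2 on nonamplified arrays (SD, n = 8 each), with a limma log2 fold change of −3.29 (adjusted p = 1.03e-05), and its other tested probe set had −2.44. Mgst2, a microsomal glutathione transferase, was called higher, averaging 469 ± 81.6 and 29.6 ± 10.9 in the same order. Its nonamplified mean lies under the filter's intensity of 33.7, so no fold is given. Glo1, which detoxifies methylglyoxal, fell (−1.60), although another of its probe sets had 0.73, and Gsta4, a glutathione transferase for lipid aldehydes, did not pass (−0.16, limma adjusted p = 0.186). Of 13 tested thioredoxin genes, 2 were higher and 5 lower. Txn1, the cytosolic thioredoxin that Txnrd1 reduces, averaged 9187 ± 889 on amplified and 4382 ± 113 on nonamplified arrays (log2 fold change 1.06, with 1.07 at its other probe set). Prdx3, the mitochondrial peroxiredoxin, and Txnrd3, the thioredoxin and glutathione reductase of testis, were lower with log2 fold changes of −2.51 and −1.42, and Prdx2, a cytosolic peroxiredoxin, did not pass (−0.12, limma adjusted p = 0.330).

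The superoxide group held no higher and 2 lower genes of 3. Ccs, the copper chaperone of Sod1, averaged 44.3 ± 47.6 on amplified and 200 ± 7.48 on nonamplified arrays (log2 fold change −2.26), while the bright probe sets of Sod1 were higher. Sod3, the extracellular dismutase, was lower (−1.32), and Park7, a redox-sensitive chaperone, did not pass (−0.30, limma adjusted p = 0.231), with 0.25 at its other probe set. Of 4 heme and iron genes, Fth1, the ferritin heavy chain, was higher at 10814 ± 379 on amplified and 3699 ± 107 on nonamplified arrays (log2 fold change 1.54, with 1.97 at its other probe set), Blvra, biliverdin reductase A, was lower (−0.61), and Hmox2, the constitutive heme oxygenase, did not pass (0.20, limma adjusted p = 0.207). Sod3 and Blvra averaged 31.9 and 29.1 on amplified arrays, under the filter's intensity of 33.7. Of 13 genes of NADPH supply and other Nrf2 targets, 5 were higher and 3 lower. Mt2, a metallothionein, rose by 1.05 on the log2 scale, whereas Idh1, cytosolic isocitrate dehydrogenase, and Osgin1, an oxidative stress induced growth inhibitor, were lower with log2 fold changes of −1.87 and −1.69. Tkt, transketolase, had a difference of 0.0060 at its brightest probe set (limma adjusted p = 0.959), with −1.15 and −0.20 at its others.

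**Figure D5:**
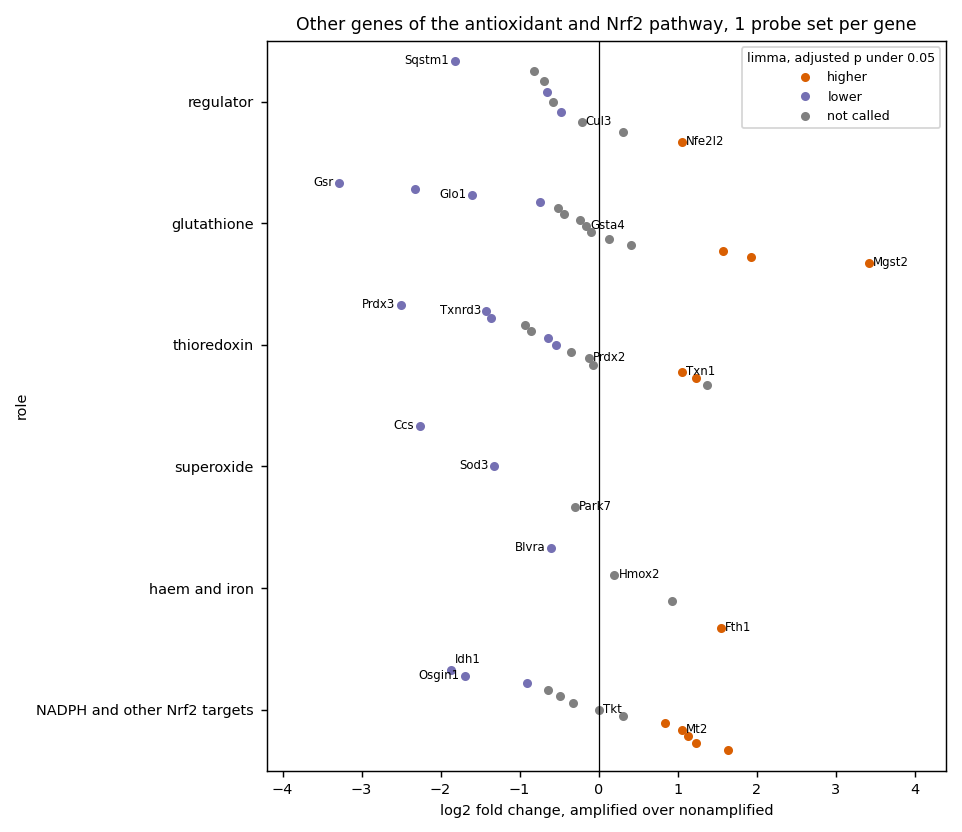
Log2 fold change (amplified over nonamplified) of 56 other genes of the pathway by role, 1 probe set per gene, coloured by the limma call (orange higher, purple lower, grey not called), with named genes labelled. Each role holds genes on both sides of 0 except the superoxide group, where all 3 lie below it.

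For the genes of the list with the largest differences at their brightest probe set, Gclc, Hmox1 and Sod2, the most similar other genes among 13651 were found by the root mean square difference of log2 profiles over the 16 arrays, each centred on its nonamplified mean. For Hmox1 these were Fbxw22, Eif2ak2 and Airn, at 0.12, 0.19 and 0.19. For Sod2 they were H2az1, Cox6a1 and Cox6b1, at 0.17, 0.18 and 0.19. For Gclc they were 2610507B11Rik, Arid4a and Kmt2c, at 0.53, 0.57 and 0.63. The distances for Gclc were the larger. Eif2ak2, Airn and Arid4a averaged 10.9, 15.0 and 12.4 on amplified arrays, under the added 16, and 119, 176 and 118 on nonamplified arrays. Hmox1 averaged 55.3 on amplified and 369 on nonamplified arrays. Likeness of these technical profiles says only that the probe sets shifted alike on the log2(intensity + 16) scale.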

How the data were processed

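The authors deposited 1 linear intensity per probe set and array, with a lowest value of 1. Labelling followed the Affymetrix one-cycle protocol, per the labels' protocols. How probes were summarised and arrays scaled is not stated in the labels or the table, so values were used as deposited. Genes were named from the platform annotation (34945 non-control probe sets with 1 symbol, 932 with several, 9160 with none) and RefSeq GRCm38.p6. The 64 control probe sets were left out of tests. Values were taken as log2(intensity + 16), probe sets at or under the 40th percentile of the mean over 16 arrays (an intensity of 33.7) were left out, and 27022 were fitted with limma 3.58.1 in R 4.3.3, 2-sided, threshold 0.05. Spread was tested by the same fit on absolute deviations, and ratios by exact permutation in scipy 1.17.1. On simulated data with observed spreads and 200 of 27022 probe sets changed, far fewer than were called in the arrays, 58% of changes of 1 and 78% of changes of 2 (log2) were called, with 0 wrong directions. Among the unchanged simulated probe sets, 28 were called as well, beside at most 200 changed ones. The share of false calls in the simulation was thus above the threshold of 0.05. The fit uses a residual variance shared by both groups, although their spreads differ, so adjusted p-values may be too small. A 4 times larger spread was called in 35.6%, so a spread that did not pass may still differ. Replicate numbers were not treated as pairs, since correlations of same-numbered arrays were between −0.0078 and 0.0176. Members, lists, tests and alternatives were chosen with earlier results of these data known. Named genes were all members. In each role of the pathway they were the 2 with the highest nonamplified mean and the 2 called with the largest change. No scan date was used, and the number of arrays limits the precision.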

Additional observations from a re-analysis of the deposited data

Results flagged for a closer look

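Each of the 22 probe sets was examined in both groups for an array far from the other 7 of its group (Dixon's gap over range on the log2 scale). Chance alone flags about 1 in 20 groups, and 2 of 44 were flagged. Amplified replicate 8 stood apart at Gpx4 1456193_x_at, with 8037 against 4616 to 5894 on the other amplified arrays (gap over range 0.560). Nonamplified replicate 2 stood apart at Txnrd1 1421529_a_at, with 1581 against 1833 to 2089 on the other nonamplified arrays (gap over range 0.529).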

How the results depend on the processing

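Of the 14 called antioxidant probe sets, 13 kept direction and call in each setting they were tested in, though not their size. Gpx4 1456193_x_at kept its direction and lost its call under quantile normalization. Among the 7 not called, signs turned in these settings without passing. Quantile normalization gave −0.19 for Gclm 1418627_at, −0.010 for Gclc 1455959_s_at, −0.33 for Gpx4 1451695_a_at and −0.14 for the Gclm ratio. Scaling on hybridization controls gave −0.31 for Gclm 1418627_at, −0.25 for Gclc 1455959_s_at and −0.037 for Cat 1416430_at. Centring on the median gave 0.20 for Gclm 1439050_at and 0.36 for Txnrd1 1421529_a_at, and scaling on the brighter 50% gave 0.0058 and 0.17. A pseudocount of 64 gave 0.10 for Gclm 1439050_at. With 1 array left out, values ranged between −0.12 and 0.43 for Gclm 1418627_at, −0.59 and 0.20 for Gclm 1439050_at, −0.17 and 0.17 for Txnrd1 1421529_a_at, and −0.23 and 1.01 for the Gclm ratio. Cat 1416430_at was called higher centred on the median (0.79), scaled on the brighter 50% (0.60) or without amplified replicate 3 (0.50). Over all tested probe sets, 10305 were higher centred on the median and 3536 scaled on hybridization controls, against 6677 as deposited. The share of calls that were higher was 43.0% as deposited, 50.7% after quantile normalization, 63.2% centred on the median, 54.1% scaled on the brighter 50% and 22.5% on hybridization controls. Lower calls numbered 13996 without the filter and 5266 at the 60th percentile, since more or fewer probe sets were tested, against 8866. Pathway genes called were 19 higher and 10 lower centred on the median. Larger spread was called for 8343 of all probe sets with deviations from the group median, against 14263. Leaving out 1 array ended the spread call in at least 1 case for Gclc 1424296_at (amplified replicate 7), Txnrd1 1421529_a_at (amplified replicate 6) and Sod1 1459976_s_at, 1447761_x_at and 1435304_at (arrays of both groups), and made it for Sod1 1451124_at (amplified replicate 7) and Sod1 1440222_at (amplified replicates 1, 2, 3, 4, 5 and 7). Dropouts of the list numbered 6 under the 10th and 33 under the 40th percentile of an array, by construction. The cause of the other changes was not tested. With the replicate number as a block, 7 antioxidant probe sets were higher and 7 lower, and nothing in the labels pairs the numbers (3 of 8 amplified arrays correlated best with their own number).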
